A study of Mus musculus with 6 samples.

Results

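The miRNAs described here are those whose genes lie inside the Hox gene clusters, namely miR-10a, miR-10b, miR-196a, miR-196b and miR-615. All mature forms with these names were taken, which gave 6 of the 1522 miRNAs in the table: mmu-miR-10a-5p, mmu-miR-10b-5p, mmu-miR-196a-5p, mmu-miR-196b-5p, mmu-miR-615-3p and mmu-miR-615-5p, written without the mouse prefix from here on. They were measured by small RNA sequencing of cells labelled NSC (neural stem cells, the dividing precursors of neurons and glia), which were obtained with a neural tissue dissociation kit. The tissue was hippocampus from C57BL/6J pups, all male, taken on postnatal day 3. The mothers of the exposed group, GDE below and IUGR in the library titles, had daily intraperitoneal injections of 1 mg/kg of the synthetic glucocorticoid dexamethasone between E14.5 and E18.5 (embryonic days). The mothers of the Control group, called Normal in the titles, received saline on the same days. Each group had 3 libraries, which the design text assigns to independent litters. No allele other than wild type is named for either group.

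Hox genes encode transcription factors that mark position along the head-to-tail axis of the embryo. In the nervous system they are expressed in the hindbrain and spinal cord, while the forebrain, from which the hippocampus arises, lies in front of their domain. The miRNAs embedded in the clusters follow much of this pattern. miR-10 and miR-196 bind mRNAs of Hox genes themselves, as shown for miR-10 in zebrafish and for miR-196 and Hoxb8 in the mouse. In adult tissues miR-10 is also found outside the nervous system, among others in endothelial cells. The comparison asks at what level miRNAs of Hox clusters were present in a forebrain preparation and whether that level differed between exposed and control pups.

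The mature sequences, from RefSeq (GRCm38.p6), are shown because 4 of the 6 form near-identical pairs, so that the counts of one can depend on how reads of the other were placed. All 6 members had an entry. Capitals mark the seed, bases 2 to 8, which chooses the target mRNAs.
miR-10a-5p: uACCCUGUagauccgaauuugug
miR-10b-5p: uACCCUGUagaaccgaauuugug
miR-196a-5p: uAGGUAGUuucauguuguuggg
miR-196b-5p: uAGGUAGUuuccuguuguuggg
miR-615-3p: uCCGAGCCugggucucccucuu
miR-615-5p: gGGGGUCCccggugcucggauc
The miR-10 pair shares a seed and the miR-196 pair shares another, while the arms of miR-615 have a seed each. Within each pair there was a single substitution, counted from the 5′ end and given as the base of the a form, the position and the base of the b form. It was U12A for miR-10 and A12C for miR-196, at the same position and outside the seed. The next lines show that position in capitals.
miR-10a-5p: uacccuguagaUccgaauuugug
miR-10b-5p: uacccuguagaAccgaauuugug
miR-196a-5p: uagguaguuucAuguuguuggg
miR-196b-5p: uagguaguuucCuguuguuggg
How the authors placed reads that match both members of a pair is not given in the sources used here, so each pair was also described by its sum. A further relation is that of miR-10 to miR-99 and miR-100, an abundant branch of the same wider family. The stretch that miR-10a-5p and miR-99a-5p have in common is in capitals here.
miR-10a-5p: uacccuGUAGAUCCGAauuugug
miR-99a-5p: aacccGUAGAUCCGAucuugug
They were 4 edits apart (substitutions, insertions or deletions) and shared a run of 10 bases, and miR-100-5p was 3 edits from miR-10a-5p.

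The 6 precursor genes fall into all 4 Hox clusters (GENCODE M21, GRCm38). Mir10a, at chr11:96317165-96317274 on the plus strand, lies between genes in HoxB, 993 bases upstream of Hoxb4. Mir10b, at chr2:74726070-74726137 (plus), lies in HoxD inside introns of the transcripts of Hoxd4 and Hoxd3 that span it. Mir196b, at chr6:52230081-52230165 (minus), lies in HoxA. It overlaps an exon in 2 of the 3 Hoxa9 transcripts that span it and starts 1032 bases past the end of Hoxa10. Mir615, at chr15:103014910-103015001 (plus), lies in HoxC in an intron of Hoxc5. miR-196a-5p has 2 source genes, Mir196a-1 in HoxB at chr11:96265164-96265265, 6192 bases upstream of Hoxb9, and Mir196a-2 in HoxC at chr15:102973350-102973434, between Hoxc10 and Hoxc9. Their hairpins, with the mature form in capitals, are 37 edits apart and yet give an identical mature miRNA, so a value of miR-196a-5p cannot be assigned to HoxB or HoxC.
Mir196a-1: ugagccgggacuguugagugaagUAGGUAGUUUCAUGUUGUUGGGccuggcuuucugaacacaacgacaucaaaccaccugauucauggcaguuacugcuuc
Mir196a-2: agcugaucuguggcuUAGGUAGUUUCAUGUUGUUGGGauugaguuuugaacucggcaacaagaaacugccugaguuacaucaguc

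**Figure D1:**
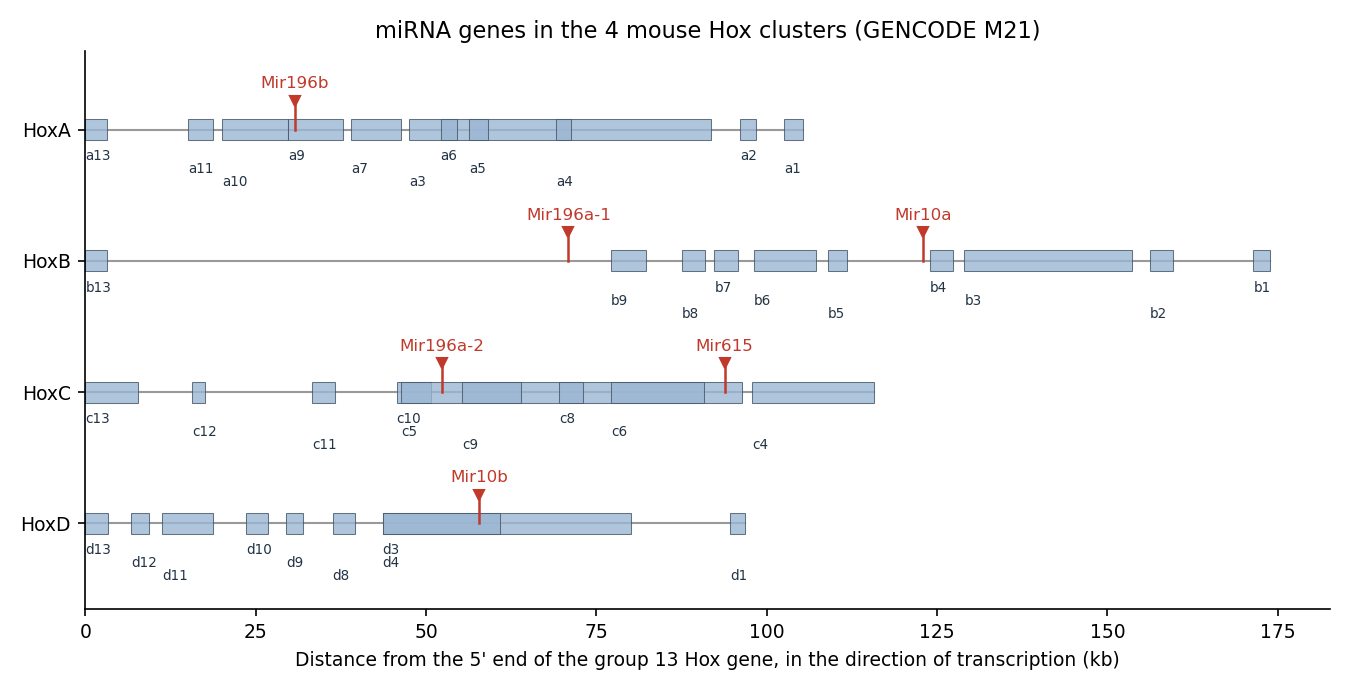
Position of the 6 miRNA genes (red) among the protein-coding Hox genes (blue bars, labelled by letter and number at their left end, with overlapping genes drawn over each other) in each mouse cluster; the x axis is the distance in kb from the start of the group 13 gene in the direction of transcription. Mir10a and Mir10b sit beside or within group 4 genes, and the 3 miR-196 genes upstream of or within group 9 genes.

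All values were taken as RPM, tags of a miRNA scaled to 1000000 tags of its library. A tag was worth 0.0807 to 0.0851 RPM. Under this reading the libraries held about 11751000 to 12385000 tags, of which 2927136 to 3343808 fell on the miRNAs of the table. Intervals printed below are exact 95% Poisson intervals of the tags and cover counting error only, since amplified reads are not independent molecules and no use of molecular identifiers is stated. A count of 0 was taken to allow up to 3 tags, a fixed limit of 0.242 to 0.255 RPM. The exact interval of 0 tags reaches somewhat higher, to 3.69 tags. In principle a miRNA gives a tag per molecule whatever its length, so levels of different miRNAs may be set side by side roughly. Ligation and PCR favour some sequences over others. The neural miRNAs stood far above the Hox cluster miRNAs, with miR-9-5p, a miRNA of neural progenitors, averaging 8389 ± 209 RPM over GDE libraries and 8427 ± 357 RPM over Control libraries (SD, n = 3 each here and below). Other abundant miRNAs lay close to it, such as miR-9-3p and miR-99a-5p with means of 7882 and 8719 RPM over GDE libraries. Whether tags stay proportional to molecules at such levels was not tested. The 6 members together summed to 17.1 to 51.1 RPM in GDE and 8.06 to 14.7 RPM in Control, or 0.00658% to 0.0212% of the RPM of the table in GDE and 0.00290% to 0.00579% in Control.

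The members were detected in both groups but at low levels. Ordered by mean RPM over all libraries, 5 of them ranked between 327 and 544 among the 1147 miRNAs with a miRBase name, miR-10a-5p highest and miR-196a-5p lowest of the 5. In GDE the order of the means was miR-10a-5p, miR-196b-5p, miR-10b-5p, miR-615-3p and miR-196a-5p, and in Control it was the same. In Control miR-196b-5p and miR-10b-5p were level, at 2.18 ± 0.598 and 2.16 ± 0.478 RPM, while in GDE the ranges of miR-196b-5p, miR-10b-5p and miR-615-3p overlapped. The ranges of miR-10a-5p and miR-196b-5p overlapped in both groups. miR-196a-5p lay below miR-615-3p without overlap in GDE, but not in Control. miR-615-5p ranked 1067.

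miR-10a-5p, of the HoxB cluster, averaged 13.7 ± 8.85 RPM over the GDE libraries and 5.23 ± 2.57 RPM over the Control libraries. GDE replicates 1 to 3 had 9.43, 7.87 and 23.9 RPM, against 2.49, 7.59 and 5.62 RPM in the Control libraries. GDE replicate 3 stood apart with 290 tags, an interval of 21.2 to 26.8 RPM, and Control replicate 1 was lowest with 30 tags. Every GDE value was above every Control value, but the nearest libraries could not be told apart, since GDE replicate 2 had 93 tags and Control replicate 2 had 94. The log2 fold of GDE over Control on the log2(RPM + 1) scale was 1.18 (SE 0.46), which did not pass the threshold over the 649 tested miRNAs (limma, adjusted p = 0.561, with 0.223 to 0.818 over the alternatives). An exact two-sided permutation test over libraries gave p = 0.1, the smallest that 3 against 3 allow. Groups that do not overlap always give this value, so here and for the other tested members it only restates the non-overlap. Without GDE replicate 3 the fold was 0.72 (limma, adjusted p = 0.818).

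miR-10b-5p, of the HoxD cluster, was lower and steadier, with means of 3.61 ± 0.913 RPM for GDE and 2.16 ± 0.478 RPM for Control. The values were 3.59, 2.71 and 4.54 RPM in GDE replicates 1 to 3, against 2.49, 1.62 and 2.38 RPM in Control. The groups did not overlap, although the gap between GDE replicate 2 and Control replicate 1 was that between 32 and 30 tags. The log2 fold was 0.54 (SE 0.23; limma, adjusted p = 0.561; exact permutation p = 0.1).

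The miR-10 pair summed to 13.02, 10.6 and 28.45 RPM in GDE replicates 1 to 3, against 4.99, 9.20 and 8.00 RPM in Control. If each read was counted once, this sum does not depend on how reads were divided between the forms. Reads counted for both forms, or left out, would change it, and whether that was done is not given. miR-10a-5p made up 72.4%, 74.4% and 84.1% of this sum in GDE, against 50.0%, 82.5% and 70.2% in Control. The log2 ratio of miR-10b-5p to miR-10a-5p averaged -1.78 ± 0.543 in GDE and -1.16 ± 1.12 in Control, a difference of -0.62 that was within the spread of the Control libraries (exact two-sided permutation p = 0.4). It depended on single libraries. Without Control replicate 1, in which both forms had 30 tags, the difference was -0.04 (exact permutation p = 0.8), without GDE replicate 3 it was -0.31 and without Control replicate 2 it was -1.16.

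miR-196b-5p, of the HoxA cluster, owed its high mean to a single library. The mean was 8.09 ± 8.92 RPM for GDE libraries and 2.18 ± 0.598 RPM for Control libraries. GDE replicates 1 to 3 held 3.01, 2.88 and 18.4 RPM, against 1.50, 2.58 and 2.47 RPM in Control. GDE replicate 3, with 223 tags and an interval of 16.1 to 20.97 RPM, was the only library outside 1.50 to 3.01 RPM. The other GDE libraries lay above Control by a margin of 34 against 32 tags at the nearest. The log2 fold was 1.09 (SE 0.59; limma, adjusted p = 0.570; exact permutation p = 0.1), and without GDE replicate 3 it was 0.33 (limma, adjusted p = 0.849).

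miR-196a-5p, which differs from it by the single base shown above, did not share that high value. It was at 1.42, 1.27 and 1.73 RPM in GDE replicates 1 to 3, against 0.665, 1.21 and 0.681 RPM in Control, with means of 1.47 ± 0.236 RPM (GDE) and 0.852 ± 0.311 RPM (Control). These are 15 to 21 tags in each GDE library and 8 to 15 in each Control library, and the nearest libraries, GDE replicate 2 and Control replicate 2, had 15 tags each. The log2 fold was 0.43 (SE 0.21; limma, adjusted p = 0.567; exact permutation p = 0.1). miR-196b-5p made up 67.9%, 69.4% and 91.4% of the sum of the pair in GDE replicates 1 to 3, against 69.2%, 68.1% and 78.4% in Control.

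miR-615-3p, from the intron of Hoxc5, had the lowest p of the members. The values were 4.43, 2.37 and 2.56 RPM in GDE replicates 1 to 3, against 0.914, 1.70 and 1.19 RPM in Control, with means of 3.12 ± 1.14 RPM (GDE) and 1.27 ± 0.397 RPM (Control). GDE replicate 1 was highest here, with 53 tags, and the nearest libraries were GDE replicate 2 with 28 tags and Control replicate 2 with 21, whose intervals overlapped. The log2 fold was 0.84 (SE 0.25; limma, unadjusted p = 0.0110, adjusted p = 0.551; exact permutation p = 0.1). The 5p arm of this precursor was all but absent, with 2 tags in GDE replicate 1, 1 tag in Control replicate 3 and 0 in the other libraries. It was not tested, and as no precursor of this group had both arms past the filter, no arm ratio was tested either.

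**Figure D2:**
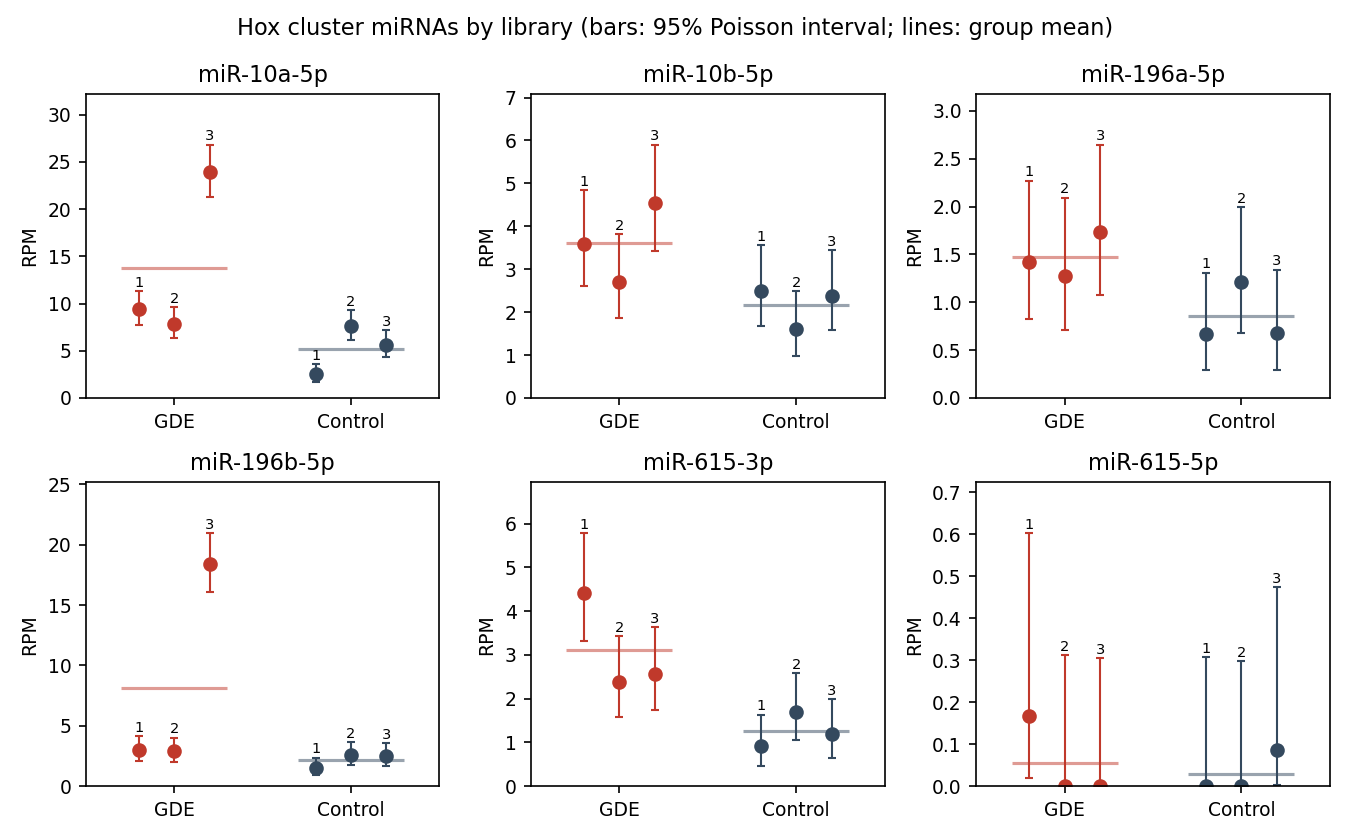
Level of each Hox cluster miRNA in RPM (y axis, from 0 and scaled per panel) in the GDE (red) and Control (dark) libraries, numbered by replicate, with exact 95% Poisson intervals as bars and the group mean as a line. GDE replicate 3 stands apart for miR-10a-5p (23.9 RPM) and miR-196b-5p (18.4 RPM) but not for the other members.

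None of the 5 tested members passed an adjusted p under 0.05 in limma, where 0.308% of all tested miRNAs did (2 of 649). Of the 5, 3, miR-10a-5p, miR-10b-5p and miR-615-3p, had an unadjusted p under 0.05 with a higher level in GDE, against 4.01% of all tested miRNAs. edgeR (TMM) and DESeq2 on the recovered tags called none of the members either, where they called 0.308% and 1.08% of all. In RPM the GDE values lay wholly above the Control values for all 5 tested members, against 4.62% of the tested miRNAs, while 10.0% of the tested miRNAs lay wholly below. The filter asked for 1 RPM in at least 3 libraries, and miR-196a-5p and miR-615-3p reached that level in 3 GDE libraries but only in 1 and 2 Control libraries, so their place among the tested rests on the group in which they were higher. With no filter the count was 5 of the 6 members, against 3.88% of all 1522 miRNAs. The log2 fold was above 0 for all 5 tested members, against 38.8% of all tested miRNAs, with a median of 0.84 over the 5 and -0.07 over all. The separation depended on the scaling. After centring each library on the median of its tested miRNAs, 2 of the 5 members, miR-10b-5p and miR-615-3p, still lay wholly above Control, against 4.01% of all higher and 12.0% lower. With tags scaled to the tags of the table instead of the library, all 5 did, against 6.47% higher and 7.86% lower among all tested miRNAs. The differences between the nearest libraries amounted to a few tags for 4 of the 5 members, as given above. The 5 members are not independent of each other, as they share the same 6 libraries and 4 of them form near-identical pairs. They were also chosen with earlier results of these data known.

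**Figure D3:**
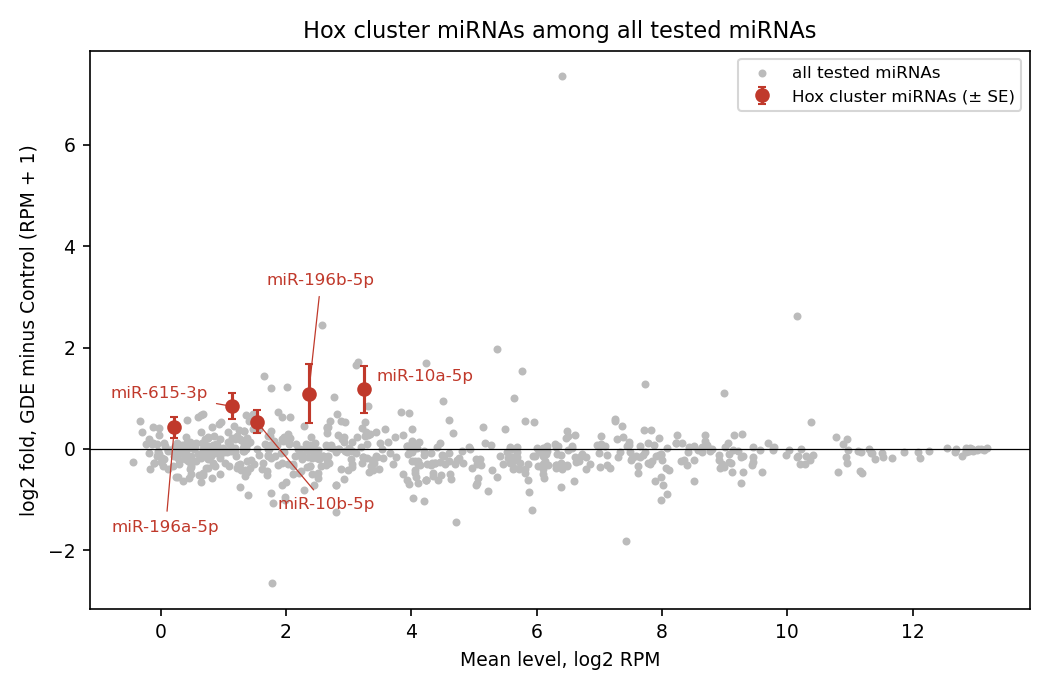
Difference of the group means of log2(RPM + 1), GDE minus Control (y axis), against the mean level in log2 RPM (x axis) for the 649 tested miRNAs (grey) and the 5 tested Hox cluster miRNAs (red, with SE). The red points lie above 0, between 0.43 and 1.18, at the low end of the levels.

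The members did not all share a profile across libraries. Likeness was measured as the root mean square difference of 2 profiles over the 6 libraries, each profile being log2(RPM + 1) minus its own mean, so 0 means the same profile. By this measure miR-10a-5p was 0.388 from miR-196b-5p, and miR-10b-5p was 0.287 from miR-196a-5p. Within the sequence pairs miR-10a-5p was 0.671 from miR-10b-5p and miR-196b-5p was 0.781 from miR-196a-5p. Each of these was thus nearer to a form with the other seed than to its sequence partner. The measure takes in the size of the swings as well as their shape, so profiles that vary little lie near each other. Likeness of shape alone was not tested. The profile of miR-615-3p was nearest to that of miR-196a-5p among the members (0.319). The SD of a profile was 0.923 for miR-10a-5p and 1.05 for miR-196b-5p, against 0.289 to 0.542 for the other 3.

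Outside the Hox clusters, the profiles nearest to that of miR-10a-5p were those of miR-211-5p (0.325), miR-204-5p (0.395) and miR-448-3p (0.420). For miR-196b-5p they were miR-211-5p (0.399), miR-448-3p (0.442) and miR-204-3p (0.594). miR-204 and miR-211 share a seed and are abundant in choroid plexus, and miR-448 comes from an intron of Htr2c, a gene also expressed there. miR-211-5p held 3.26, 3.13 and 9.32 RPM in GDE replicates 1 to 3, against 1.25, 2.26 and 1.02 RPM in Control. miR-448-3p held 3.92, 1.52 and 10.3 RPM in GDE, against 0.332, 0.807 and 1.87 RPM in Control. Both were highest in GDE replicate 3, as were the 2 members. As miR-211-5p and miR-448-3p were picked for profiles near these members, the shared high library follows largely from that choice. The nearest profiles of miR-10b-5p were miR-543-3p (0.119), miR-145a-5p (0.140), a miRNA of vascular mural cells, and miR-376b-3p (0.174). Those of miR-615-3p were miR-487b-3p (0.211), miR-410-3p (0.223) and miR-382-5p (0.228), and those of miR-196a-5p were miR-677-5p (0.125), miR-369-3p (0.135) and miR-194-2-3p (0.168). Of these, miR-543, miR-376b, miR-487b, miR-410, miR-382 and miR-369 lie in the imprinted Dlk1-Dio3 locus. Likeness over 6 libraries describes these libraries only, since all values of a library share its depth and makeup.

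**Figure D4:**
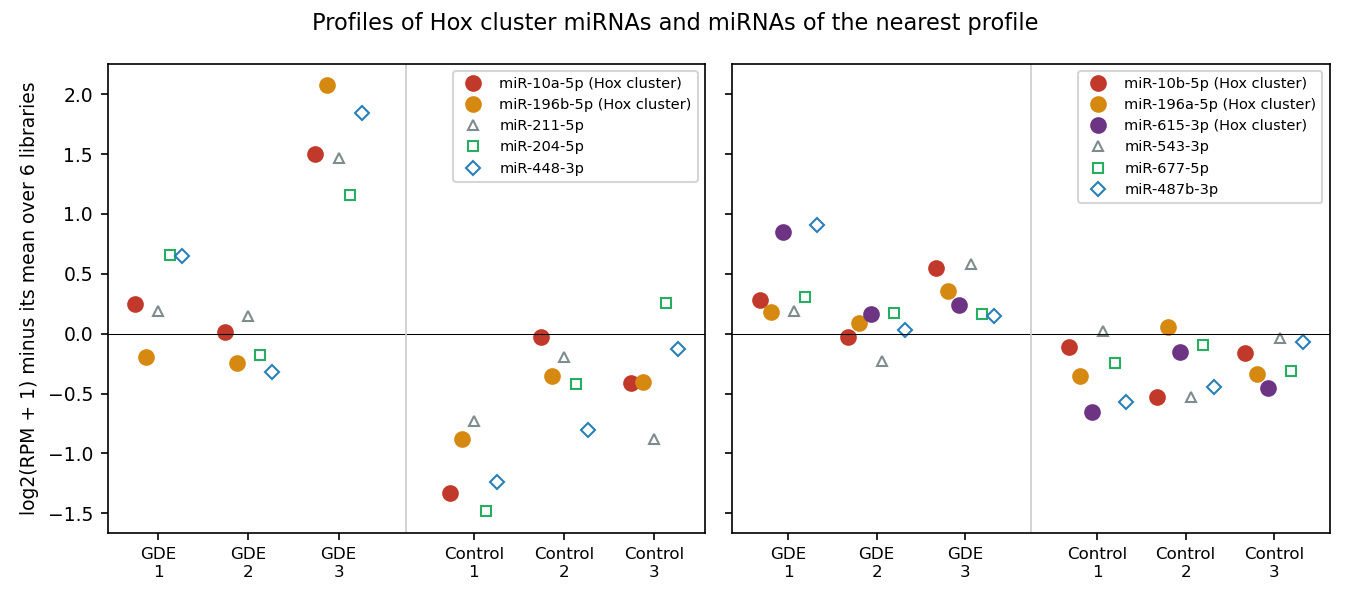
Log2(RPM + 1) of each miRNA minus its mean over the 6 libraries (y axis) in the GDE and Control libraries (x axis), for Hox cluster miRNAs (filled circles) and miRNAs outside the clusters with near profiles (open symbols). On the left miR-10a-5p and miR-196b-5p share a high value in GDE replicate 3 with miR-211-5p, miR-204-5p and miR-448-3p, which were picked for near profiles. On the right miR-10b-5p, miR-196a-5p and miR-615-3p vary less.

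Since these miRNAs can come from several cell types, the marker miRNAs of other cells were set beside them. In bulk RNA, more cells of a type and more RNA per cell cannot be told apart. The choroid plexus list, miR-204-5p and miR-211-5p, summed to 691.2, 387.7 and 982.8 RPM in GDE replicates 1 to 3, against 155.9, 327.4 and 520.1 RPM in Control. Nearly all of this was miR-204-5p, with 973.5 RPM in GDE replicate 3 and 154.7 RPM in Control replicate 1. The sum was thus highest in GDE replicate 3 and lowest in Control replicate 1, like miR-10a-5p and miR-196b-5p, but GDE replicate 2 lay below Control replicate 3. Both miRNAs of the list are among the nearest profiles given above, so this likeness is not a separate observation. miR-211-5p alone was lowest in Control replicate 3, at 1.02 RPM. Its GDE values lay wholly above Control, as for 4.62% of all tested miRNAs. Both miRNAs of the list had a positive log2 fold, with a median of 1.15, and neither passed the threshold (limma, adjusted p = 0.561 for miR-204-5p and 0.551 for miR-211-5p). The endothelial and mural list of 4, miR-126a-3p, miR-126a-5p, miR-143-3p and miR-145a-5p, summed to 339.7 to 558.8 RPM in GDE and 316.0 to 408.9 RPM in Control, with GDE replicate 3 highest. All 4 had a positive fold, with a median of 0.33, and for 2 of them the GDE values lay wholly above Control, as they did for 4.62% of all tested miRNAs, where 10.0% lay wholly below. These were miR-126a-5p and miR-145a-5p, the second with means of 4.84 ± 0.606 RPM for GDE and 2.77 ± 0.418 RPM for Control and a log2 fold of 0.63 (limma, adjusted p = 0.551). The mesenchymal list of miR-199 and miR-214 forms, which mark fibroblasts and meninges, summed to 43.1 to 55.8 RPM in GDE and 35.1 to 45.7 RPM in Control, with 2 positive and 2 negative folds.

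The microglia and leukocyte list summed to 2166 to 2660 RPM in GDE and 1482 to 2203 RPM in Control, with 5 positive folds of 6, a median of 1.25 and miR-142a-5p at 0 in 1 Control library. For 3 of these 6 the GDE values lay wholly above Control, against the same 4.62% of all tested miRNAs. In the erythroid list the sums were 73.9 to 93.6 RPM in GDE, all above the 35.0 to 69.1 RPM in Control. miR-144-5p was at 0 in some libraries of both groups. Of the 2 tested erythroid miRNAs, only miR-451a lay wholly above Control, as did 4.62% of all tested miRNAs. Its means were 65.3 RPM (GDE) and 34.5 RPM (Control), with a log2 fold of 0.996 (limma, adjusted p = 0.551). The groups overlapped for miR-486a-5p, with means of 15.63 RPM (GDE) and 15.03 RPM (Control) and a log2 fold of 0.049. In the skeletal muscle and heart list, which would mark tissue from outside the brain, miR-1a-3p was at 0 to 0.751 RPM and miR-133a-3p at 0.0810 to 0.495 RPM over all libraries, while miR-206-3p averaged 26.7 ± 10.1 RPM over GDE libraries and 40.3 ± 14.96 RPM over Control libraries. miR-122-5p, of liver, averaged 12.4 ± 4.78 RPM over GDE libraries and 9.29 ± 1.49 RPM over Control libraries. The neural progenitor and neuronal list of 9 summed to 18165 to 19564 RPM in GDE and 18068 to 19227 RPM in Control, with a median log2 fold of 0.08. Of the 34 tested miRNAs of these lists and of the wider miR-10 family, 0 passed the threshold in limma and 0 in edgeR, where each called 0.308% of all tested miRNAs. DESeq2 called 1, the lymphocyte miRNA miR-150-5p, where it called 1.08% of all. An unadjusted p under 0.05 in limma was found for 7 of the 34 (miR-142a-3p, miR-145a-5p, miR-150-5p, miR-204-5p, miR-211-5p, miR-223-3p and miR-451a), all with a higher level in GDE, against 4.01% of all tested miRNAs with such a p and a higher level. Control replicate 1, lowest for 4 of the 5 tested members, also had the lowest sum of the leukocyte list. The part of other cell types in the levels of the Hox cluster miRNAs was not tested.

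The wider miR-10 family, which lies outside the Hox clusters, did not share the positive folds of the members. miR-99a-5p lies at a level where, as said above, proportion of tags to molecules was not tested. miR-99a-5p averaged 8719 ± 161 RPM over GDE libraries and 8772 ± 191 RPM over Control libraries. miR-99b-5p had means of 4828 ± 16.5 RPM (GDE) and 4974 ± 429 RPM (Control), and miR-100-5p of 4223 ± 260.5 RPM (GDE) and 4444 ± 641 RPM (Control). With miR-125a-5p and miR-125b-5p, 5 of 5 had a log2 fold below 0 (median -0.04), and none passed the threshold. Over all tested miRNAs only 38.8% had a fold above 0, and the median was -0.07. GDE replicate 3, the library highest in miR-10a-5p, had the lowest summed level of these 5, at 19343 RPM, against 19702 to 22373 RPM in Control and 20719 and 21324 RPM in the other GDE libraries. In that library miR-125b-5p was at 1253 RPM, against 1606 to 2629 RPM elsewhere, and miR-99a-5p and miR-125a-5p were also at their lowest. By contrast, miR-99b-5p and miR-100-5p were lowest in Control replicate 1, at 4479 and 3704 RPM. That library was also the lowest in miR-10a-5p.

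Leaving out each library in turn moved the members unequally. For miR-10a-5p the log2 fold ran between 0.72 and 1.47, and for miR-196b-5p between 0.33 and 1.49, each lowest without GDE replicate 3. For miR-10b-5p the range was 0.40 to 0.68, for miR-196a-5p 0.35 to 0.56 and for miR-615-3p 0.63 to 0.97. No member passed the threshold in any of these fits, where the adjusted p in limma ran between 0.450 and 0.849.

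**Figure D5:**
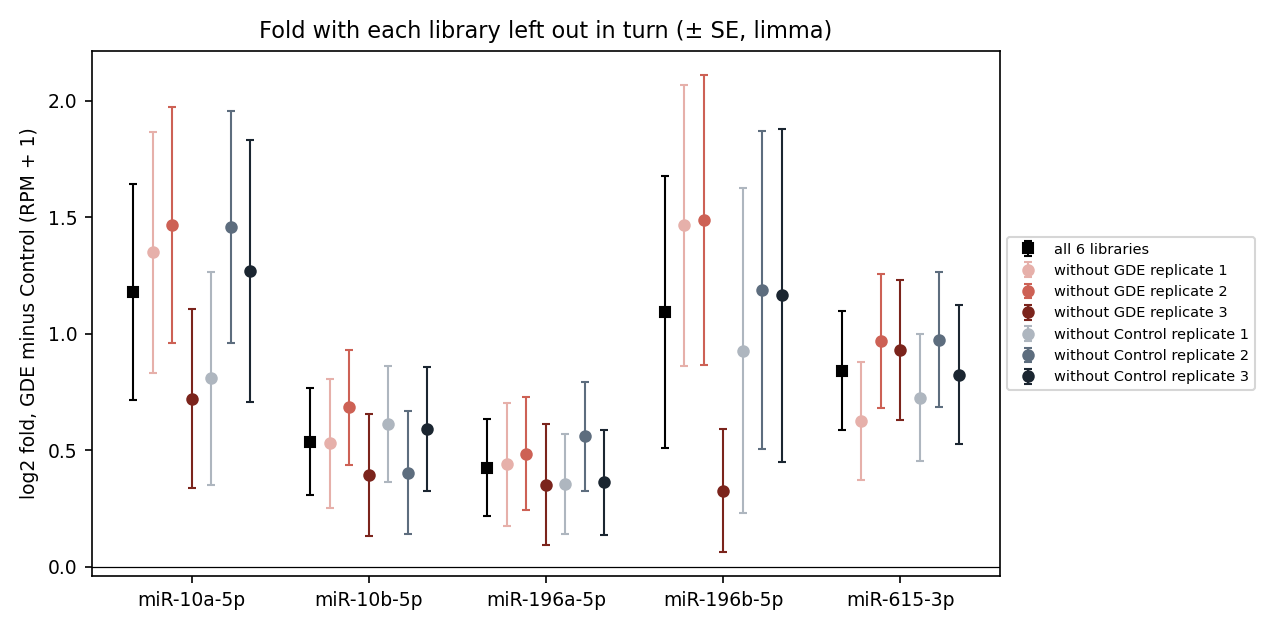
Log2 fold of GDE minus Control (y axis, RPM + 1, with SE from limma) of each tested Hox cluster miRNA (x axis) with all 6 libraries (squares) and with each library left out in turn (circles). Without GDE replicate 3 the fold of miR-196b-5p was 0.33 and that of miR-10a-5p 0.72, while the folds of the other 3 stayed between 0.35 and 0.97 in these fits.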

How the data were processed

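Small RNA was sequenced from TRIzol-extracted RNA, in MGIEasy libraries per the labels' protocols. Bowtie2 and mm10 stand in the submitters' processing notes, without a version or a role. Trimming and the handling of reads matching several miRNAs are not given in the sources used. The deposited columns carry no unit, as per the file headers they are named only Expression, and they were taken to be RPM, scaled by the authors to library depth, because the values step by a fixed amount in each library. Such a step shows counts scaled by a constant, and that the constant is library depth was not tested. The columns summed to 241370 to 277888. In each library 100% of the nonzero values were whole multiples of 1 tag (tolerance 0.1 tags), which gave back tags and, under the RPM reading, depth. Library titles gave the groups. limma 3.58.1 (R 4.3.3, with trend) on log2(RPM + 1) was the main test, over 649 miRNAs at 1 RPM or more in 3 libraries, two-sided, Benjamini-Hochberg threshold 0.05. The log2(RPM + 1) scale understates the change of low miRNAs. edgeR 4.0.16 (quasi-likelihood) and DESeq2 1.42.0 were run on the tags, and single values were tested by exact permutation (scipy 1.17.1). Fits were tested on simulated data. Named miRNAs were all members, the 3 of nearest profile for each tested member, and the 3 most abundant of a list, plus others named for their 0 values, their non-overlap or to complete a list. The members and lists were chosen with earlier results of these data known. Of the 1522 rows, 120 repeated the values of an earlier row, none of them a member. Gene positions follow GENCODE M21 (GRCm38) and sequences RefSeq. Alternatives covered the pseudocount (0.1 and 10), filter, scaling, tool, a replicate block and each library left out.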

Additional observations from a re-analysis of the deposited data

How the results depend on the processing

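The log2 folds of the 5 tested members stayed positive and short of the threshold under every alternative in which they were tested; with at least 10 RPM in 3 libraries no member was tested, and DESeq2 gave miR-196a-5p no adjusted p. Their size followed the scale, with edgeR (TMM) folds of 1.49, 0.86, 0.88, 2.02 and 1.37 for miR-10a-5p, miR-10b-5p, miR-196a-5p, miR-196b-5p and miR-615-3p. The count of miRNAs called over the whole table was 2, and it was 7 with DESeq2, 1 with at least 10 RPM in 3 libraries, and 1 to 2 with a library left out. The cause of the higher DESeq2 count was not tested; the stricter filter tests fewer miRNAs. The number of Hox cluster precursors with both arms measured was 0, and 1 (miR-615, with 3 tags of its 5p arm) with both arms above 0 in 1 library. With a replicate block the folds were unchanged and the count of calls was 2, with an adjusted p of 0.423 for miR-10a-5p and 0.476 for miR-615-3p in limma. Same-numbered libraries did not deviate together (correlation of deviations -0.03, -0.12 and -0.03), though 3 libraries per group cannot exclude a pairing by number. The block lowered the SE of miR-10a-5p and miR-196b-5p and raised that of miR-10b-5p, miR-196a-5p and miR-615-3p. The difference between GDE and Control in the log2 ratio of miR-10b-5p to miR-10a-5p kept its sign in all 8 alternatives, from -1.16 without Control replicate 2 to -0.04 without Control replicate 1. Tags limit these values: members held 8 to 290 tags per library, miR-615-5p 0 to 2.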
